A study of Mus musculus with 6 samples.

Results

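The genes described here encode the subunits of oxidative phosphorylation, the respiratory chain and ATP synthase of the mitochondrion. They were chosen by symbol, as the mitochondrially encoded mt-Nd, mt-Co, mt-Cytb and mt-Atp genes and the nuclear Nduf, Sdh, Uqcr, Cox and Atp5 subunit genes, leaving out symbols that hold -ps, which mark pseudogenes, and Cox6a2. The rule found 94 of the 24348 genes in the count table, of which 11 were mitochondrially encoded and 83 were nuclear. GENCODE lists 2 of the nuclear ones, Ndufa11b and Ndufs6b, as processed pseudogenes, which are reverse-transcribed copies of a gene. They encode no known subunit but meet the rule and stay in the counts. RNA was sequenced from fibroblasts sorted from collagenase-digested synovium, the tissue that lines joints, of adult wild-type C57BL/6 mice. One group had received immune complexes (IC), antibodies bound to antigen, by intravenous injection (3 libraries), and the other had received vehicle (3 libraries). The labels give neither the time between injection and dissection nor whether a library came from 1 mouse or from pooled mice. P-values therefore measure the spread between these libraries, which may in part be technical.

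Electrons from NADH and succinate enter the chain at complex I and complex II, pass through complex III to complex IV, which reduces oxygen, and the proton gradient they build drives ATP synthesis by complex V. All complexes but complex II are mosaics, with a few core subunits made from mitochondrial DNA inside the organelle and the rest made from nuclear genes and imported. Mitochondrial genes are cut from long transcripts that run around each strand of the small circular genome, so neighbouring mt- genes share a precursor, whereas each nuclear subunit has a promoter of its own. Fibroblasts use this machinery for energy and also rely on glycolysis.

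Total counts ranged from 40114331 to 56714304 per library and overlapped between groups. The 11 fibroblast markers, among them Pdgfra, Col1a1 and Dcn, were above 0 in every library. In CPM (counts scaled to a common library total), their summed level was 45029 to 46774 after IC and 45893 to 55756 after vehicle. Skeletal muscle markers, from a tissue rich in mitochondria, were also present: their summed level was 31.6 to 57.2 CPM after IC and 52.6 to 122 CPM after vehicle, and 18 of the 20 tested markers had a log2 fold change below 0. Of the 21 muscle markers in the table, Myl1 and Pvalb were at 0 in IC replicate 3, and Myh7 was at 0 in IC replicate 3 and vehicle replicate 2. The 10 endothelial markers all had a log2 fold change below 0, with a summed level of 212 to 286 CPM after IC and 281 to 340 CPM after vehicle, and their part in the results was not tested. Vehicle replicate 1 stood apart in mitochondrial ribosomal RNA, with a normalized count of 29526 for mt-Rnr2 against 2891 to 6299 in the other 5 libraries. In these bulk samples, fewer cells of a type and less RNA per cell cannot be told apart.

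Part of the mitochondrial genome has near-identical copies in nuclear chromosomes, which bears on the values of the mt- genes inside or partly inside the copied sequence. Coordinates and transcripts were taken from GENCODE M21 on GRCm38, the assembly that mm10 names. On chromosome 1, 7 annotated pseudogenes follow one another as a copy of the stretch from the end of mt-Co1 to mt-Nd4. Over the aligned bases, mt-Co2, mt-Co3, mt-Atp6, mt-Nd3 and the first 876 bases of mt-Nd4 did not differ from their copies at any base. A shorter match, Gm29216 (chr1:24615706-24616197, minus strand), covered the last 483 bases of mt-Co1 with 1 difference, A1066T, with positions counted from 1 at the start of mt-Co1. A second copy of mt-Co1, Gm13340 on chromosome 2 (chr2:22588103-22589647, minus strand), ran over all 1545 bases with 37 differences. The windows below show how few bases separate mt-Co1, the most abundant of these genes, from each copy. Each is 60 bases long, and capitals mark the bases that differ within a pair.
mt-Co1, bases 1063 to 1122: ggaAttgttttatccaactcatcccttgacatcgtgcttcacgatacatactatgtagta
Gm29216, bases 10 to 69: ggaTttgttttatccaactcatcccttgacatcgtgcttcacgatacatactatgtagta
mt-Co1, bases 460 to 519: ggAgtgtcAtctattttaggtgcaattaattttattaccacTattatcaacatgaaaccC
Gm13340, bases 460 to 519: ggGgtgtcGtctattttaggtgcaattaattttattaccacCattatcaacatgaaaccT

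Levels were then set beside shared sequence. The share of each transcript lying in exact runs of at least 100 bases that also occur in another gene was 0% for mt-Nd1, mt-Nd5, mt-Nd6 and mt-Cytb, 12.4% for mt-Nd2, 48.1% for mt-Co1 and 63.6% for mt-Nd4. It was 98.3% for mt-Nd3, 99.6% for mt-Co2 and mt-Atp6, and 99.9% for mt-Co3. The 4 genes above 98% had a mean level of 8.90 to 122 normalized counts per kb of exon, and the other 7 had 1787 to 117640. These 4 genes follow mt-Co1, which had the highest level, on the same strand of the mitochondrial genome. How reads that align to several places were counted is not given in the sources used here, so a low level in a gene with such copies cannot be read as low expression. Among the 4 genes with no shared run, the order per kb was mt-Cytb (29251), mt-Nd1 (13418), mt-Nd6 (6540) and mt-Nd5 (2381), and the ranges over the 6 libraries did not overlap between neighbours in this order. The copies themselves had few counts: Gm29216 had a mean of 170 normalized counts, Gm13340 had 109 and Gm28661, the copy of mt-Co2, had 25.7.

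**Figure D1:**
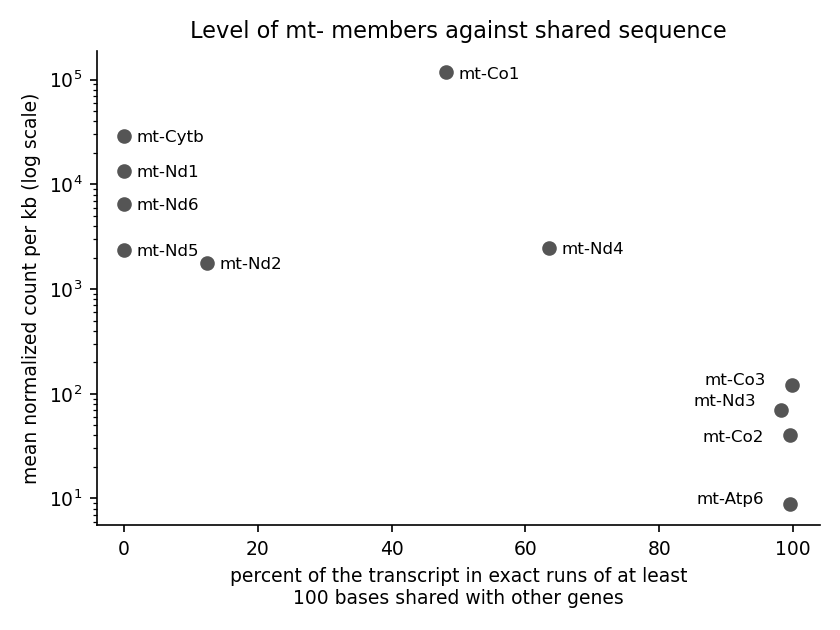
Mean normalized count per kb over the 6 libraries (y axis, log scale) against the percent of the transcript in exact runs of at least 100 bases shared with other genes (x axis); each point is 1 of the 11 mt- genes. The 4 genes above 98% lie at 8.90 to 122, and the other 7 at 1787 to 117640.

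The first question was whether the mitochondrially encoded genes differed after IC. Of 10 tested genes 1 passed the test: mt-Co1, the catalytic subunit of complex IV, fell, with a fold of 0.777. The groups did not overlap for mt-Co1 and mt-Nd3, both lower, and overlapped for the other 8. Of all genes tested, 7.67% had non-overlapping groups with IC lower and 8.09% with IC higher. All 10 tested mt- genes had a log2 fold change below 0 (median -0.30), against 50.4% of the 19925 genes tested (median -0.0019 on the same log2 scale). The eleventh, mt-Atp6, a proton channel subunit of complex V, had 2 to 9 counts per library and was not tested. DESeq2 called 419 genes (2.1%) in either direction at an adjusted p under 0.05, of which 214 (1.07%) were lower and 205 (1.03%) higher. An unadjusted p under 0.05 was reached by 3 of the 10 mt- genes and by 9.8% of all genes tested. These genes are not independent of each other, since they share precursors.

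mt-Co1 (chrM:5328-6872, plus strand) had normalized counts of 178206, 141009 and 157461 in IC replicates 1 to 3. The vehicle replicates had 216183, 200596 and 197067. Every IC library was below every vehicle library, a pattern that 7.67% of all genes tested had in this direction. The log2 fold change was -0.36 ± 0.09 (SE; DESeq2 adjusted p = 0.00349). It was not called by edgeR, which gave 0.155 as adjusted p and called 0.186% of all genes, nor by limma-voom (adjusted p = 0.0935). DESeq2 lost the call without IC replicate 2 (adjusted p = 0.0610).

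mt-Cytb (chrM:14145-15288), the electron-carrying core of complex III and the most abundant mt- gene with no shared run, had 33348, 28018 and 28849 normalized counts after IC. After vehicle it had 40875, 33067 and 36619, so that IC replicate 1 lay just above vehicle replicate 2. Its log2 fold change was -0.29 ± 0.09, close to that of mt-Co1, and its DESeq2 adjusted p (0.0655) missed the threshold. Leaving out 1 library moved the DESeq2 adjusted p from 0.0193 without IC replicate 1 and 0.0225 without vehicle replicate 2, where it was called, to 0.404 without IC replicate 2. Without vehicle replicate 1 the log2 fold change was -0.21 (adjusted p = 0.211).

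The mt-Nd genes encode core subunits of complex I that sit in the membrane arm and pump protons. mt-Nd1 (chrM:2751-3707) had 13663, 11128 and 11020 normalized counts after IC and 17244, 12092 and 11899 after vehicle. The groups overlapped, with vehicle replicate 1 well above the other 5 libraries (log2 fold change -0.20 ± 0.13). mt-Nd5 (chrM:11742-13565) had 4661, 3100 and 3877 after IC and 5570, 4390 and 4465 after vehicle. Its log2 fold change was -0.31 ± 0.14 (DESeq2 adjusted p = 0.296), and again IC replicate 1 lay among the vehicle libraries. mt-Nd4 (chrM:10167-11544) had 3876, 1717 and 2821 after IC against 4151, 3957 and 3800 after vehicle (log2 fold change -0.50 ± 0.32), and mt-Nd2 (chrM:3914-4951) had 2320, 1030 and 1679 against 2380, 1867 and 1852 (-0.28 ± 0.35). In both genes IC replicate 2 was the lowest library and IC replicate 1 was within the vehicle range.

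mt-Nd6 (chrM:13552-14070) is the only one of these genes on the minus strand, and so comes from the other precursor. It had 2869, 3655 and 3450 normalized counts after IC and 4275, 3083 and 3032 after vehicle. Its log2 fold change was the smallest of the 10, -0.06 ± 0.14, with a 95% interval of -0.33 to 0.21. The interval contains the values of mt-Nd1 and mt-Cytb, and the difference between the strands was not tested. IC replicate 2, the lowest library for mt-Co1, mt-Cytb, mt-Nd2, mt-Nd4 and mt-Nd5, was not low for mt-Nd6. mt-Nd6 and mt-Nd5 overlap at their ends on opposite strands, and whether strand was used in counting is not given in the sources used here.

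The genes inside the copied stretch had few counts and wide intervals. mt-Co2 and mt-Co3, the other core subunits of complex IV, had 15.5 to 27.5 and 71.7 to 112 normalized counts after IC, and 26.4 to 38.9 and 86.3 to 121 after vehicle. mt-Nd3 had 15.2 to 18.6 after IC and 20.7 to 40.2 after vehicle, without overlap, and a log2 fold change of -0.87 ± 0.69. DESeq2 gave mt-Co2 and mt-Nd3 no adjusted p because of their low counts. The 95% interval of the log2 fold change was -1.02 to 0.45 for mt-Co3 and wider for mt-Co2 and mt-Nd3, so modest differences could be missed. How reads that align to several places were counted is not given.

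**Figure D2:**
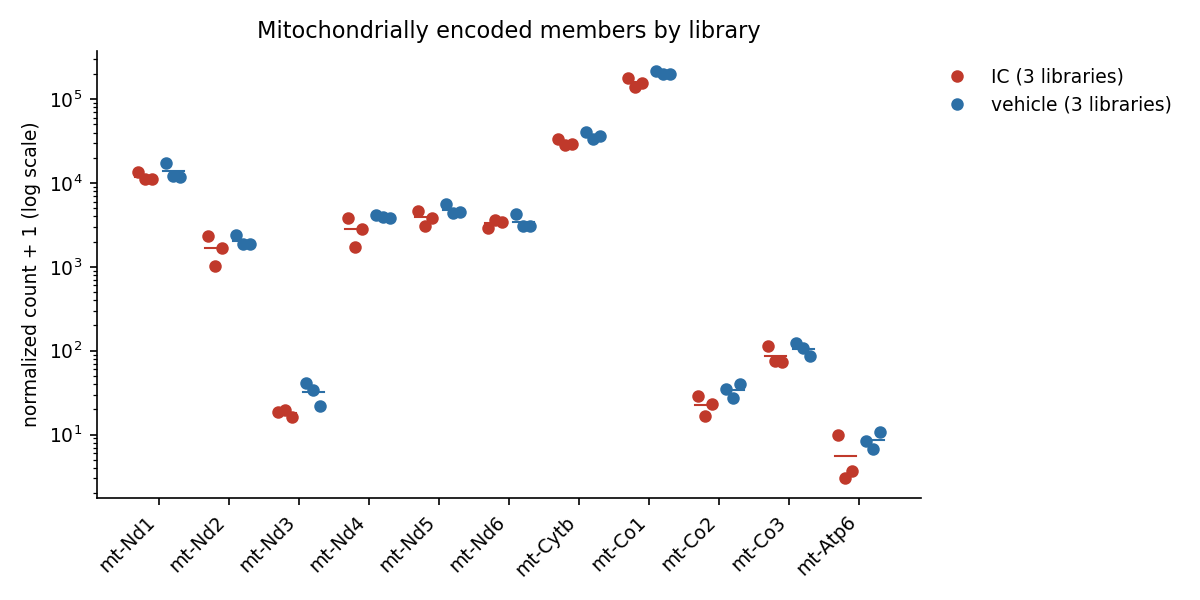
Normalized count plus 1 (y axis, log scale) of the 11 mitochondrially encoded genes in each IC library (red) and vehicle library (blue), replicates 1 to 3 from left to right, with a line at each group mean. mt-Co1 and mt-Nd3 show no overlap between groups, and mt-Nd3, mt-Co2, mt-Co3 and mt-Atp6 lie far below the other 7.

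The nuclear genes are the other side of the same complexes, and for them the data show no broad difference. Of the 83 nuclear genes, 82 were tested, and 1, Cox7a2l, was called lower and none higher by DESeq2. edgeR and limma-voom called no nuclear gene and no mt- gene, and at an unadjusted p under 0.05 each found 1 nuclear gene and 4 mt- genes, against 9.64% of all genes tested in edgeR and 10.3% in limma-voom. With DESeq2 an unadjusted p under 0.05 was reached by Cox7a2l alone, 1 of 82 against 9.8% of all genes tested. The log2 fold change was below 0 for 52 of 82, with a median of -0.05. For 61 of the 82 the 95% interval lay within 1.5-fold in either direction, so that larger changes are outside it. The same held for 9385 of all 19925 genes tested, and all 9385 were among the 13435 genes that averaged 100 or more normalized counts. Of the 82 nuclear genes, 76 reached that level. The 19925 include many genes of lower count, so this comparison does not show that the nuclear genes were unusually stable. Groups did not overlap for 3 genes, with Cox7a2l and Ndufa1 lower and Ndufa4l2 higher, against 7.67% of all genes tested for lower and 8.09% for higher. Ndufs6b, the processed pseudogene related to Ndufs6, had 0 to 12 counts per library and was not tested. Without the pseudogenes, 81 nuclear genes were tested, with 1 called, 52 below 0 and a median of -0.06.

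**Figure D3:**
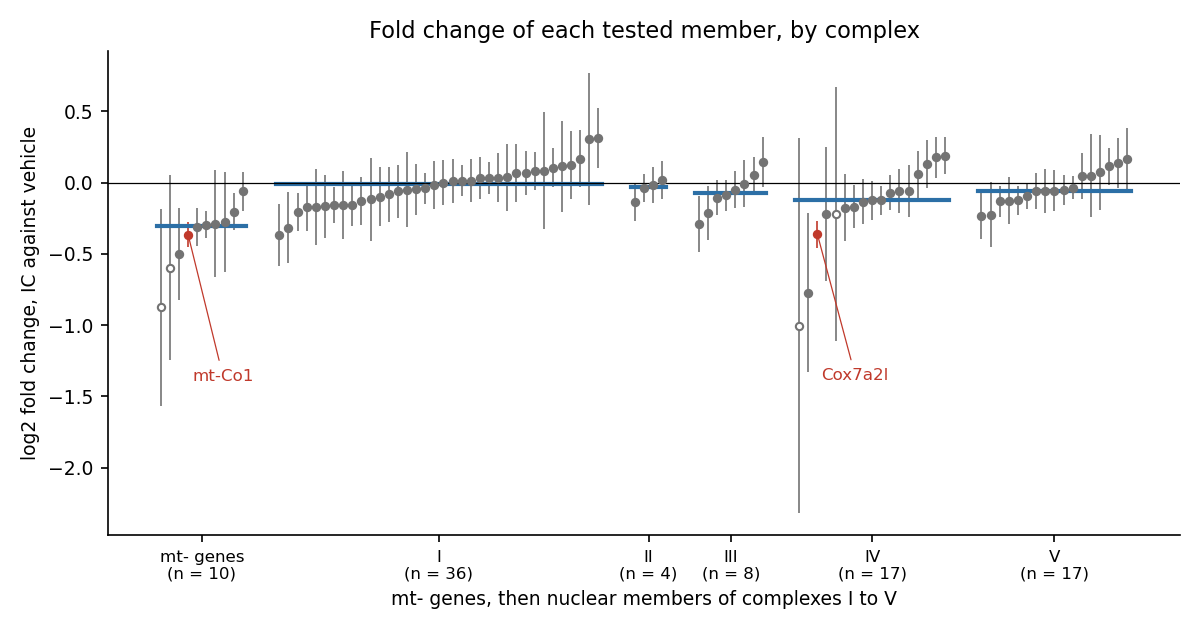
Log2 fold change of IC against vehicle (y axis) with its standard error for each tested gene, mt- genes first and then nuclear genes by complex; blue lines are group medians, red points are called by DESeq2 and open points have no adjusted p. The mt- median is -0.30, and the nuclear medians run from -0.12 in complex IV to -0.01 in complex I.

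Cox7a2l (chr17:83501918-83517330, minus strand) encodes a protein related to a complex IV subunit. Its normalized counts were 2651, 2746 and 2792 in IC replicates 1 to 3 and 3336, 3811 and 3369 in the vehicle replicates. The IC libraries lay close together and below every vehicle library. The log2 fold change was -0.36 ± 0.09, a fold of 0.779 (DESeq2 adjusted p = 0.00948). The adjusted p was 0.0986 by edgeR and 0.0972 by limma-voom, and DESeq2 lost the call without IC replicate 1 (adjusted p 0.0731), IC replicate 2 (0.0502) or vehicle replicate 2 (0.0663). A run of 17.8% of its transcript also occurs in the annotated gene Gm6969. Its promoter, the RefSeq sequence from 250 bases before to 50 bases after the start on GRCm38.p6 (chr17:83514284-83514583, minus strand), is shown because it belongs to the one nuclear gene called. It held none of the 3 motifs described further on, so nothing is in capitals. This window lies inside the GENCODE gene span given above, and the sequence at the annotated start of the gene (base 83517330) was not searched.
Cox7a2l promoter: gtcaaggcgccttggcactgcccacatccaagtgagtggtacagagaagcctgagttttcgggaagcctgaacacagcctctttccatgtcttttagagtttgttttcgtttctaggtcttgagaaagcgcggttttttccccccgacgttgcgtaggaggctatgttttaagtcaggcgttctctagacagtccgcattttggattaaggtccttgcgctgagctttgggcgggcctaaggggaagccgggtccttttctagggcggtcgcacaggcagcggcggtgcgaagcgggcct

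Complex I had the most nuclear genes, and the 36 tested ones divided almost evenly, with 19 log2 fold changes below 0 and 17 above 0 (median -0.01), the pseudogene Ndufa11b among the latter. Ndufa1, an accessory subunit anchored in the membrane, had 233, 227 and 247 normalized counts after IC against 267, 330 and 317 after vehicle. The groups did not overlap, but the log2 fold change of -0.37 ± 0.22 did not pass (DESeq2 adjusted p = 0.571). Ndufb11, a membrane-arm subunit, had 865, 857 and 904 after IC and 1034, 1091 and 900 after vehicle (-0.20 ± 0.13). At the other end was Ndufa12, with a mean of 455 ± 94.6 (SD, n = 3) after IC and 367 ± 41.4 (SD, n = 3) after vehicle, and overlapping groups.

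Complex II, succinate dehydrogenase, is wholly nuclear and also works in the tricarboxylic acid cycle. All 4 of its genes had a 95% interval within 1.5-fold. Sdha, the flavoprotein that oxidizes succinate, had 4326, 3825 and 4131 normalized counts after IC and 3814, 4564 and 4248 after vehicle, a log2 fold change of -0.04 ± 0.10. Sdhd, a membrane anchor, had 1102, 1347 and 1442 after IC and 1321, 1484 and 1476 after vehicle (-0.14 ± 0.13). The libraries of the groups were interleaved in both genes.

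In complex III, 6 of 8 nuclear genes had a log2 fold change below 0 (median -0.07). Uqcrb, a subunit next to the quinone site, had 504, 382 and 546 normalized counts after IC and 475, 651 and 629 after vehicle (-0.29 ± 0.20). Uqcr11, a small accessory subunit, had 369, 357 and 404 against 401, 497 and 411 (-0.21 ± 0.19). Uqcrh, the hinge protein by cytochrome c1 and the highest of the 8 per kb (1627), had 1847, 2189 and 1816 against 2153, 2039 and 2032 (-0.09 ± 0.11), whereas Uqcr10 had 612, 635 and 803 against 540, 694 and 620 (0.15 ± 0.17). None passed the test.

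Complex IV, cytochrome c oxidase, has subunits in several tissue forms, here taken with Ndufa4, which is now placed in this complex, and its relative Ndufa4l2. Of its 17 nuclear genes, 13 had a log2 fold change below 0 (median -0.12). The ubiquitous forms dominated: Cox4i1 had 2675 to 2984 normalized counts after IC and 2819 to 3368 after vehicle, Cox7a2 had 1067 to 1436 and 1009 to 1446, and Cox8a had 1109 to 1343 and 1285 to 1396. The forms typical of heart, muscle or brown fat were near the limit of counting. Cox7a1 had 11.02, 4.13 and 5.38 normalized counts after IC and 18.0, 0 and 23.1 after vehicle. Cox8b had 20.9, 51.7 and 33.2 after IC and 36.9, 77.5 and 66.9 after vehicle, and its log2 fold change was -0.77 ± 0.56 (DESeq2 adjusted p = 0.702).

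The lung form Cox4i2 had 6.20 to 20.9 normalized counts after IC and 12.3 to 23.1 after vehicle. Ndufa4l2, which is induced by hypoxia in many cells, was at 1129, 1057 and 1025 after IC and 839, 1001 and 976 after vehicle. Every IC library exceeded every vehicle library, but the log2 fold change of 0.19 ± 0.13 did not pass (DESeq2 adjusted p = 0.682). Its partner Ndufa4 had 500 to 724 normalized counts in the 6 libraries, with interleaved groups (-0.06 ± 0.18). Per kb of all annotated exons, Ndufa4l2 was at 918 and Ndufa4 at 425. The gap depends on the length used. All exons span 1381 bases in Ndufa4 and its longest coding transcript 610, against 1095 and 934 in Ndufa4l2.

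Complex V, ATP synthase, held the most abundant nuclear genes. Atp5a1 and Atp5b, the alternating subunits of the catalytic head, had the highest levels per kb of all annotated exons (3251 and 2792) among nuclear genes. This ranking also depends on the length used. All exons span 3135 and 4237 bases, and the longest coding transcripts 2674 and 1916. Atp5a1 had 9544, 10037 and 10629 normalized counts after IC and 9832, 10970 and 10141 after vehicle, a log2 fold change of -0.03 with a 95% interval of -0.19 to 0.12. Atp5b had 10723, 11033 and 12614 against 11246, 13351 and 12023 (-0.09, interval -0.27 to 0.09). Counts were highest here among nuclear genes, and a change of 1.5-fold is outside both intervals. Atp5j, in the stalk that couples head and membrane, had 798, 702 and 654 against 799, 1005 and 720 (-0.23 ± 0.17). Atp5d, of the central stalk, had 2212, 2237 and 2200 against 2222, 2598 and 2420 (-0.12 ± 0.10), and the median of the 17 genes was -0.06.

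**Figure D4:**
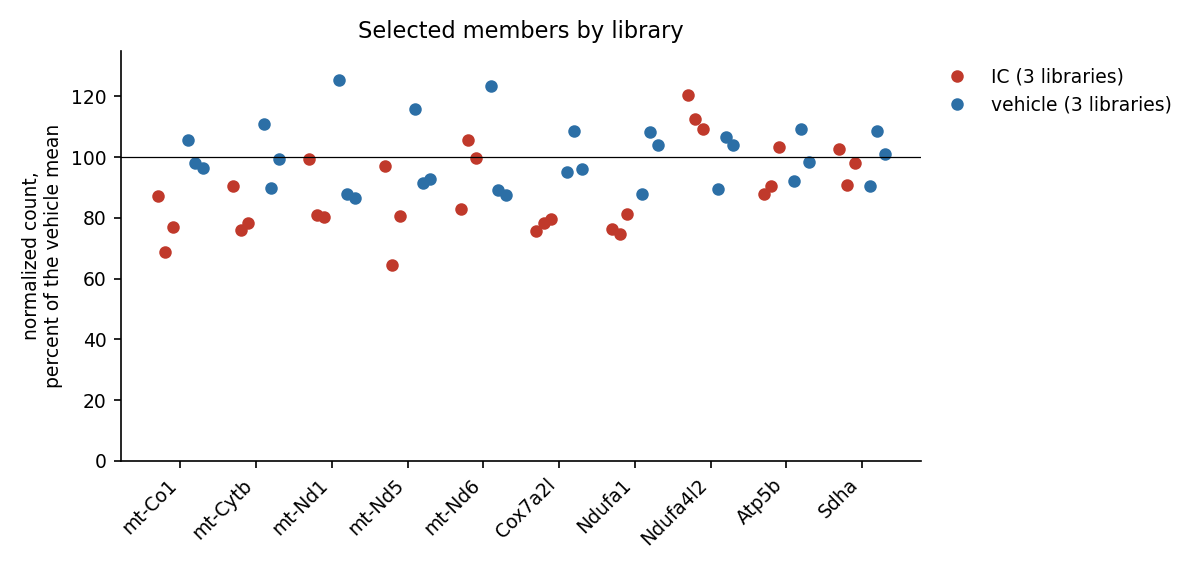
Normalized count as a percent of the vehicle mean (y axis) for 10 genes in each IC library (red) and vehicle library (blue), replicates 1 to 3 from left to right; the line marks 100%. mt-Co1, Cox7a2l and Ndufa1 show IC libraries below all vehicle libraries and Ndufa4l2 above them, and the other 6 genes overlap.

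The second question set the mitochondrial genome against the nuclear genome. Summed over the 11 mt- genes, normalized counts were 239109, 189767 and 209269 in IC replicates 1 to 3 and 290881, 259224 and 258889 in the vehicle replicates. The means were 212715 ± 24851 (SD, n = 3) and 269665 ± 18374 (SD, n = 3), and the groups did not overlap. mt-Co1 made up 74.3% to 77.4% of these counts in each library, and without it the groups overlapped. This is a share of counts as assigned, since the low counts of mt-Co2, mt-Co3, mt-Nd3 and mt-Atp6 cannot be read as low expression. The summed nuclear genes were nearly level, at 95433, 95261 and 106859 after IC and 97278, 110941 and 100953 after vehicle. The mt- genes took 0.498%, 0.400% and 0.432% of all counts after IC and 0.626%, 0.526% and 0.531% after vehicle.

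Set against each other within a library, the sums gave a log2 ratio of mt- to nuclear counts of 1.33, 0.99 and 0.97 after IC and 1.58, 1.22 and 1.36 after vehicle. IC replicate 1 lay above vehicle replicate 2, so the ratio overlapped between groups although the mt- sum did not. The mean difference was -0.29, against SDs of 0.20 within IC and 0.18 within vehicle, and no test was made of it. The mt- sum and the nuclear sum did not order the libraries alike. Vehicle replicate 1 had the highest mt- sum and one of the lower nuclear sums, and IC replicate 3 had the second highest nuclear sum with a low mt- sum. By complex, the mean summed nuclear count after IC differed from that after vehicle by -1.79% in complex I, -2.86% in complex II, -4.07% in complex III, -6.41% in complex IV and -3.97% in complex V, with overlapping groups in each.

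**Figure D5:**
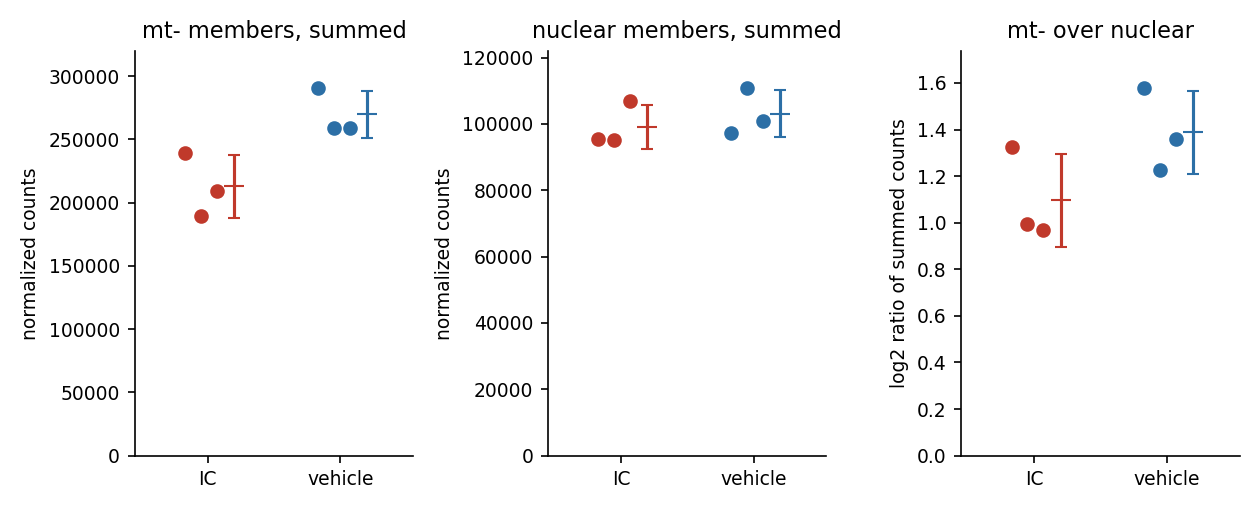
Summed normalized counts of the 11 mt- genes (left) and the 83 nuclear genes (middle), and the log2 ratio of mt- to nuclear summed counts (right), for each IC library (red) and vehicle library (blue), with mean and SD. The mt- sums do not overlap (189767 to 239109 against 258889 to 290881), and the nuclear sums and the ratio do.

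Several other values moved with the mt- genes. A skeletal muscle score, the mean log2 of normalized counts plus 1 over the 20 tested markers, was added to the DESeq2 fit. With it, mt-Co1 had a log2 fold change of -0.27 (DESeq2 adjusted p = 0.99987) and Cox7a2l -0.33 (DESeq2 adjusted p = 0.960). Of the 10 mt- genes, 8 were below 0. This fit called 44 of all genes tested, against 419 in the main fit. The mean of this score was itself higher in the vehicle group, so score and treatment overlap in the fit. Of the mitochondrial ribosomal RNAs, mt-Rnr1 had 10422, 8286 and 7323 normalized counts after IC and 32895, 14049 and 12058 after vehicle, without overlap (log2 fold change -1.18 ± 0.51, DESeq2 adjusted p = 0.284). Vehicle replicate 1 was far above the other libraries, and the fit was repeated without it. Without vehicle replicate 1, DESeq2 called mt-Co1 and Cox7a2l, among 677 of all genes tested, against 419 in the main fit. The median of the mt- genes was then -0.20 on the log2 scale, with 9 of 10 below 0.

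The nuclear promoters were searched for 3 motifs of factors known to act on respiratory genes, on both strands: GCGCATGCG, the core of the NRF1 motif, CCGGAAG, an ETS motif read by GABPA, and AAGATGGCG, a YY1 motif. RefSeq promoters (GRCm38.p6) were matched for 66 of the 83 nuclear genes. The NRF1 core was in 12.1% of them and in 3.58% of the promoters of 12282 tested genes. The ETS motif was in 25.8% and 17.7%, and the YY1 motif in 10.6% and 3.02%. At least 1 motif was present in 27 of the 66 promoters (40.9%) and in 22.7% of those of tested genes. By complex, the ETS motif was in 4 of 31 promoters in complex I, 2 of 3 in II, 2 of 5 in III, 3 of 13 in IV and 6 of 14 in V. The YY1 motif was in 5 of 31 in complex I and 2 of 14 in V, and in none of those of complexes II, III and IV. The NRF1 core was in 2, 0, 2, 1 and 3 promoters of complexes I to V. These are counts of letters and not of binding.

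The 8 promoters with the NRF1 core follow with the flanking bases, because they are the matched nuclear promoters that hold this sequence. The first base of the match lay from -241 (Atp5l) to 30 (Uqcrc1) relative to the start site. Capitals mark the match, which extends to a palindrome where both strands matched. The genes come from complexes I, III, IV and V. None of the 8 was called.
Ndufa8, complex I (chr2:36049329-36049357, minus strand): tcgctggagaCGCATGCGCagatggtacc
Ndufa11, complex I (chr17:56717692-56717721, plus strand): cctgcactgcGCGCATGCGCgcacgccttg
Uqcr11, complex III (chr10:80406808-80406836, minus strand): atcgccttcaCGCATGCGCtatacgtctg
Uqcrc1, complex III (chr9:108936668-108936697, plus strand): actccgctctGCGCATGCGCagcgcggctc
Cox6a1, complex IV (chr5:115349101-115349130, minus strand): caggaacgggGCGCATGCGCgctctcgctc
Atp5g2, complex V (chr15:102671070-102671099, minus strand): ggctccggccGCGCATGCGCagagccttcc
Atp5k, complex V (chr5:108434430-108434459, minus strand): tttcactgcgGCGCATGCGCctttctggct
Atp5l, complex V (chr9:44920965-44920992, minus strand): aaccaataaCGCATGCGCatttccccca

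Genes around the chain were examined as lists, to be read against the shares of all genes tested: DESeq2 called 1.03% higher and 1.07% lower, and an unadjusted p under 0.05 was reached by 9.8% in DESeq2 and 9.64% in edgeR. Of 45 tested assembly factors of the respiratory complexes, 1 was called higher and none lower (median log2 fold change -0.06). It was Foxred1, a complex I assembly factor, with 1290, 1404 and 1541 normalized counts after IC and 1019, 1022 and 1151 after vehicle (0.41 ± 0.13, adjusted p = 0.0467 in DESeq2 and 0.178 in edgeR). None of 34 genes for transcription and upkeep of mitochondrial DNA and RNA was called by DESeq2 or edgeR, and 6 and 5 of them reached an unadjusted p under 0.05 (median -0.08). The smallest p among them was that of Tfb1m, which methylates mitochondrial ribosomal RNA, with 82.6, 80.6 and 51.1 after IC and 122, 170 and 167 after vehicle (-1.10 ± 0.36, adjusted p 0.0674 by DESeq2). None of 78 mitochondrial ribosomal proteins was called by DESeq2 or edgeR, and 2 and 3 reached an unadjusted p under 0.05 (median -0.01). None of 26 electron carriers and nucleotide exchangers was called by either, and 3 and 4 reached it (median -0.06).

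Among 21 regulators of mitochondrial biogenesis, 1 was called in each direction (median -0.01). Esrrb, an orphan nuclear receptor related to the estrogen receptors, fell from 107, 118 and 152 normalized counts after vehicle to 25.3, 10.3 and 17.03 after IC, far outside the spread of either group. Its log2 fold change was -2.84 ± 0.47, and both DESeq2 (adjusted p = 9.30e-07) and edgeR (0.0287) called it. It was not called by limma-voom (adjusted p = 0.0603). Pprc1, a coactivator related to PGC-1alpha, rose from 6745, 5726 and 6366 to 8116, 8233 and 8107 (0.38 ± 0.08, adjusted p = 0.00104 in DESeq2 and 0.0909 in edgeR). Ppargc1a itself, which encodes PGC-1alpha, had a mean of 133 ± 2.31 (SD, n = 3) after IC and 187 ± 66.4 (SD, n = 3) after vehicle, with overlapping groups. Of 18 genes in the list of the tricarboxylic acid cycle, 1 was called: Pdk4, a kinase that holds back pyruvate dehydrogenase, fell from 1135, 1516 and 1031 to 755, 644 and 547 (-0.92 ± 0.18, adjusted p = 4.45e-05 in DESeq2 and 0.0585 in edgeR).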

How the data were processed

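Total RNA-seq counts from 3 IC and 3 vehicle libraries were used. The authors trimmed reads with Trim Galore, aligned them to mm10 with HISAT2 and deposited raw counts of reads per gene from featureCounts. Versions, gene annotation and the handling of strand and of multi-mapped reads are not given in the sources used here, and the library kit in the labels is not the one in the methods. The study's methods mention batch removal with sva, but the labels give no batch.

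A gene was tested where 3 or more libraries had 10 or more counts (19925 of 24348), with DESeq2 (version 1.42.0), adjusting over all of them. The genes left out held 0.0429% of counts. Fold changes are unshrunken, and normalized counts are counts divided by the size factor. Alternatives were edgeR (version 4.0.16), limma-voom (limma version 3.58.1), other scalings and filters, a replicate block, 1 surrogate variable (sva version 3.50.0), a muscle score and each library left out. The script was tested on simulated data. Replicates of a group differed beyond sampling noise (chi-square per degree of freedom 16.05 to 76.7).

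Named genes were all mt- genes, called nuclear genes, in each complex the 2 with the smallest p and the 2 with the highest counts per kb, the tissue forms and their partners, untested genes, and in each list up to 4 called genes or else the one with the smallest p. One gene under this rule is not reported here. Ndufa12, Ppargc1a, mt-Rnr2 and the muscle and fibroblast markers at 0 or named as examples were added after their values were seen. The members and lists were chosen with earlier results of these data known. Lengths were exon unions in GENCODE M21, which matched 92 of 94 symbols once. Transcripts were compared with blastn.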

Additional observations from a re-analysis of the deposited data

How the results depend on the processing

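With 3 libraries per group, the 2 calls depended on the test. Called mt- and nuclear genes both went from 1 to 0 with edgeR, limma-voom, the replicate block in edgeR and the muscle score. These fits also called fewer of all genes tested: 37, 62, 22 and 44, in that order, against 419 in the main fit. With the replicate block in DESeq2, 2 mt- genes (mt-Co1 and mt-Cytb, the latter at an adjusted p of 0.0175) and 0 nuclear genes were called. That fit called 320 of all genes tested. The replicate numbers were not treated as pairing, since same-numbered libraries deviated together with correlations of only -0.09, -0.16 and 0.02. Leaving out each library in turn gave 0 to 3 mt- calls (3 when IC replicate 1 was left out, 0 for IC replicate 2 and 2 for vehicle replicate 2) and 0 to 1 nuclear calls. The other scalings and filters left both counts at 1. The fold changes were steadier. The median of the mt- genes was below 0 in all 19 alternatives (-0.49 to -0.20), and so were the log2 fold changes of mt-Co1 (-0.46 to -0.27) and Cox7a2l (-0.40 to -0.29). The median of the nuclear genes was -0.13 to 0.01, above 0 in 3 of 19. The mt- to nuclear log2 ratio differed by -0.41 to -0.20 under its 11 alternatives. It differed by -0.20 for mt- genes outside the stretch copied on chromosome 1, with overlapping groups (SD 0.20 within IC and 0.28 within vehicle). Without mt-Co1, an alternative chosen after seeing the data, it differed by -0.22, again with overlap (SD 0.21 within IC and 0.27 within vehicle). The percent of counts in mt- genes differed by -0.14 to -0.09 percentage points. Low counts limit mt-Co2, mt-Co3, mt-Nd3 and mt-Atp6.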

Other observations

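Among the marker lists of other cell types, against 1.07% of all genes tested called lower and 1.03% higher, DESeq2 called 5 of 20 tested skeletal muscle genes, 2 of 10 endothelial genes, 1 of 8 mural cell genes and 1 of 2 brown fat genes lower, 1 of 5 chondrocyte genes higher, and 2 fibroblast genes lower and 1 higher of 11. The log2 fold change was below 0 for all 10 endothelial genes (median -0.39) and for 18 of 20 muscle genes (median -1.47), against 50.4% of all genes tested. It called none of 4 macrophage, 4 adipocyte, 6 Schwann cell and 7 nuclear-retained RNA genes, of which 0, 0, 0 and 2 had an unadjusted p under 0.05, the same counts as in edgeR, which called none of them either. The brown fat gene was Dio2, an enzyme that activates thyroid hormone, which fell from 1358, 1742 and 1266 normalized counts after vehicle to 779, 726 and 858 after IC (log2 fold change -0.89 ± 0.15, adjusted p = 1.46e-06 in DESeq2 and 0.0287 in edgeR). Neat1, a long RNA that stays in the nucleus, had 127876, 169813 and 97458 after IC and 79815, 38695 and 54307 after vehicle, without overlap, and a DESeq2 adjusted p of 0.0577. Of the annotated chromosome 1 copies of mitochondrial DNA, 3 were tested, none was called and none had an unadjusted p under 0.05 in DESeq2 or edgeR. Of 6 mitochondrial ribosomal and transfer RNAs none was called by DESeq2 or edgeR, and 2 had an unadjusted p under 0.05 in each.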
